A study of Mus musculus with 12 samples.

Results

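The mRNAs of ribosomal proteins and translation factors start with a stretch of pyrimidines, the TOP motif, and LARP1 binds this motif together with the cap that precedes it. LARP1 also contacts poly(A) tails. RNMT is the enzyme that methylates the cap guanosine. Enhanced crosslinking immunoprecipitation (eCLIP) uses ultraviolet light to join a protein to the RNA it touches in cells. It then sequences cDNAs, which are expected to stop just short of the crosslinked base. The regions described here were those called in the LARP1 immunoprecipitate (IP) that overlapped no gene of the GENCODE M21 annotation (mouse GRCm38) on either strand and did not lie within 100 nt upstream of a same-strand transcript, with chromosome Y left out. They numbered 817 of the 3189 regions in the control list and 239 of the 2367 regions in the Rnmt cKO list, or 1056 of 5556 in all. The question behind the experiment was which RNAs LARP1 binds in these cells and whether that depends on RNMT, and regions outside genes are the part of the lists that gene-based counts leave out.

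The cells were naive CD4 T cells from mouse lymph nodes. The control mice were Rnmt fl/fl without Cre and the Rnmt cKO mice were Rnmt fl/fl with CD4cre, so both carried the loxP-flanked Rnmt alleles, and Rnmt was deleted in T cells because the Cd4 promoter drives the Cre. Among T cell genes, Cd4 held 1 control and 5 Rnmt cKO regions and Cd3d held 1 and 2, Trac held 1 and 0, and Cd3e, Cd3g, Trbc1 and Trbc2 held none, as did Cd8a, the B cell gene Ms4a1 and the myeloid gene Lyz2. Each list came from 1 library, so that no spread between animals is known and the genotypes could not be tested against each other. All intervals below are 95% intervals over the regions of a list (Wilson for a share, Newcombe for a difference between shares of the same list), and they cover counting error only. No region lay in the Rnmt gene in either list, so these lists do not check the deletion.

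The cells were from female mice, and their ages and any pooling of animals are not given in the labels. The antibody was abcam ab86359 in both libraries.

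Annotated gene ends and gene segments close to these regions carry much of what follows, and the sequences are shown first. Processed pseudogenes are copies of spliced mRNAs that were put back into the genome, and many of them come from ribosomal protein mRNAs. A region lay at most 205 nt after the annotated end of 10 such pseudogenes, and the last 30 bases of 8 of these are given 5′ to 3′ from the GENCODE M21 transcript sequences (GRCm38). AC126807.1 and Gm6863 are named only. Capitals mark the 3 bases that aligned with the stop codon of the matching mRNA.

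Gm4149: atcagaagactgaaggaactgaaagaccag
Gm9794: attgcatccaacgcaggcagcattgcaTGA
Gm8129: ccgggtttggcagtgaaggatctgaaaTGA
Gm6204: aaggggggtcgtcgtggtcgccgtctgTGA
Rpl5-ps1: agagctcaggaaagggctgctgaaagcTAA
Tpt1-ps3: aaggatggcttagagatggagaaatgtTAA
Tpt1-ps6: aaggatggcttagagatggagaaatgtTAA
Gm10180: agaagaaagatgaggcagaggtccaagTAA

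These stretches lay at chr13:75645142-75645171 (plus strand) for Gm4149, chr6:66875321-66875350 (minus) for Gm9794, chr6:52346730-52346759 (minus) for Gm8129, chr3:53692422-53692451 (minus) for Gm6204, chr1:14865936-14865965 (plus) for Rpl5-ps1, chr6:99877816-99877845 (minus) for Tpt1-ps3, chrX:101769028-101769057 (plus) for Tpt1-ps6 and chr9:25101404-25101433 (minus) for Gm10180. Gm4149 has no capitals because its annotated model ended directly before the stop codon of its match. The others shown ended on the stop codon itself.

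Joining (J) segments of the T cell receptor genes are the short exons that recombination in the thymus attaches to a variable segment, and the transcript then runs on through an intron to the constant segment. Shown are the 4 segments of the alpha locus that had a region in no gene at most 150 nt after their end, and the 1 segment of the beta locus with a region at 236 nt. Capitals mark the last 3 bases, on the side where the region lay.

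Traj21: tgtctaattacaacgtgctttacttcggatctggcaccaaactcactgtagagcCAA
Traj23: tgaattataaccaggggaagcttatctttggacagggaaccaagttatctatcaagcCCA
Traj16: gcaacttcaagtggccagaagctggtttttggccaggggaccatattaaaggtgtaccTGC
Traj26: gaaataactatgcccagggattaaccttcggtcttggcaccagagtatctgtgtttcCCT
Trbj1-5: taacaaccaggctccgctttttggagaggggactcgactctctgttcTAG

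They lay at chr14:54198790-54198846 (Traj21), chr14:54196081-54196140 (Traj23), chr14:54203134-54203194 (Traj16), chr14:54194490-54194549 (Traj26) and chr6:41535084-41535133 (Trbj1-5), all on the plus strand.

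The control list had more regions in no gene than the Rnmt cKO list, in number and as a share of the list. In the control list 25.6% of regions (24.1 to 27.2%) were in no gene, against 10.1% (8.95 to 11.4%) of Rnmt cKO regions. After scores occurring 20 or more times in a list were left out, the shares in no gene were 16.6% and 9.56%. Their summed score, the sum of the PureCLIP scores that the authors deposited for each region, was 19.7% of the control total and 8.24% of the Rnmt cKO total. Most were a few bases wide. The 817 control regions covered 1097 nt and held 1022 crosslink sites, the single bases at which PureCLIP called a crosslink. The 239 Rnmt cKO regions covered 628 nt and held 475 sites. Both strands were used about equally, with 422 control regions on the plus and 395 on the minus strand, and 126 and 113 in the Rnmt cKO list.

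A single crosslink site was the rule in the control list and less so in the Rnmt cKO list. Of the control regions in no gene, 682 of 817 had 1 site (83.5%, 80.8 to 85.9%, against 82.6% of the whole list). Of the Rnmt cKO regions in no gene, 124 of 239 had 1 site (51.9%, 45.6 to 58.1%, against 54.7% of that list). Within each list this was close to the regions in genes. Regions in no gene minus regions in a gene of the same strand gave 1.25 percentage points (-1.93 to 4.25) among control regions and -4.05 (-10.7 to 2.58) among Rnmt cKO regions. No control region in no gene held more than 6 sites, and no Rnmt cKO one more than 7.

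The score of these regions was often a value that many other regions of the list also had. In the control list 468 of 817 regions in no gene had a score that occurred 20 or more times in the list (57.3%, 53.9 to 60.6%, against 34.2% of the whole list). Regions in a gene of the same strand had such a score in 17.3% of cases, which is 40.0 percentage points less (interval of the difference 36.1 to 43.7). Regions opposite a gene had one in 63.4% of cases, and the regions in no gene differed from them by -6.14 points (-11.6 to -0.586). Among Rnmt cKO regions in no gene, 16 of 239 had such a score (6.69%, 4.16 to 10.6%, against 1.48% of the whole list), 6.19 points more than regions in a gene of the same strand (3.63 to 10.1). In both lists, then, repeated scores were more common outside genes than in genes of the same strand. The intervals treat the regions as independent, which was not tested. In the Rnmt cKO list all 16 regions had the same 1 value.

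The repeated control scores were 13 values, and 9 of them formed a ladder of nearly equal steps. The most frequent was 1.31, which 145 regions in no gene shared. The next steps were 4.83 with 86 regions, 8.34 with 64, 11.8 with 46, 15.3 with 30, 18.8 with 21, 22.3 with 17, 25.7 with 12 and 29.2 with 13. Neighbouring values on this ladder were 3.45 to 3.52 apart. The ladder was built upward from the most frequent value, each time taking the most frequent repeated value about this far above. The near-equal steps were therefore part of the choice. Together the 9 values held 434 of the 817 control regions in no gene. The other 4 values were 1.01 with 4 regions, 1.37 with 10, 4.88 with 15 and 36.0 with 5. All 468 control regions with a repeated score had 1 crosslink site. The Rnmt cKO list had 1 repeated value, 1.51, which occurred 35 times in the list, 16 of them in no gene and each with 1 site.

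Few of the control regions in no gene were called again in the Rnmt cKO list, whereas most of the Rnmt cKO regions were called in the control list. A pair was counted where regions of both lists shared 1 or more nt of the same strand, and there were 139. That was 17.0% of the 817 control regions (14.6 to 19.7%, against 26.3% of the whole control list) and 58.2% of the 239 Rnmt cKO regions (51.8 to 64.2%, against 35.4% of the whole Rnmt cKO list). Set against regions in a gene of the same strand, the shared fraction differed by -15.4 points among control regions (-18.6 to -11.9) and by 28.3 points among Rnmt cKO regions (21.6 to 34.6), in opposite directions. Regions opposite a gene stood on the same sides, with 14.0% (control) and 71.7% (Rnmt cKO) shared. The regions in no gene differed from them by 3.06 points in the control list (-1.13 to 6.99). In the Rnmt cKO list the difference was -13.6 points (-23.9 to -1.94). The partner was itself in no gene in all 139 pairs, which leaves 917 separate places, 678 of them in the control list alone and 100 in the Rnmt cKO list alone. Both shares count the same pairs, so the list with fewer regions has the larger share. Among regions with at least 2 sites, of which there were 135 control and 115 Rnmt cKO ones, the shares were 51.9% and 60.9%. With 1 library for each genotype, a difference between genotypes and a difference between libraries cannot be told apart.

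**Figure D1:**
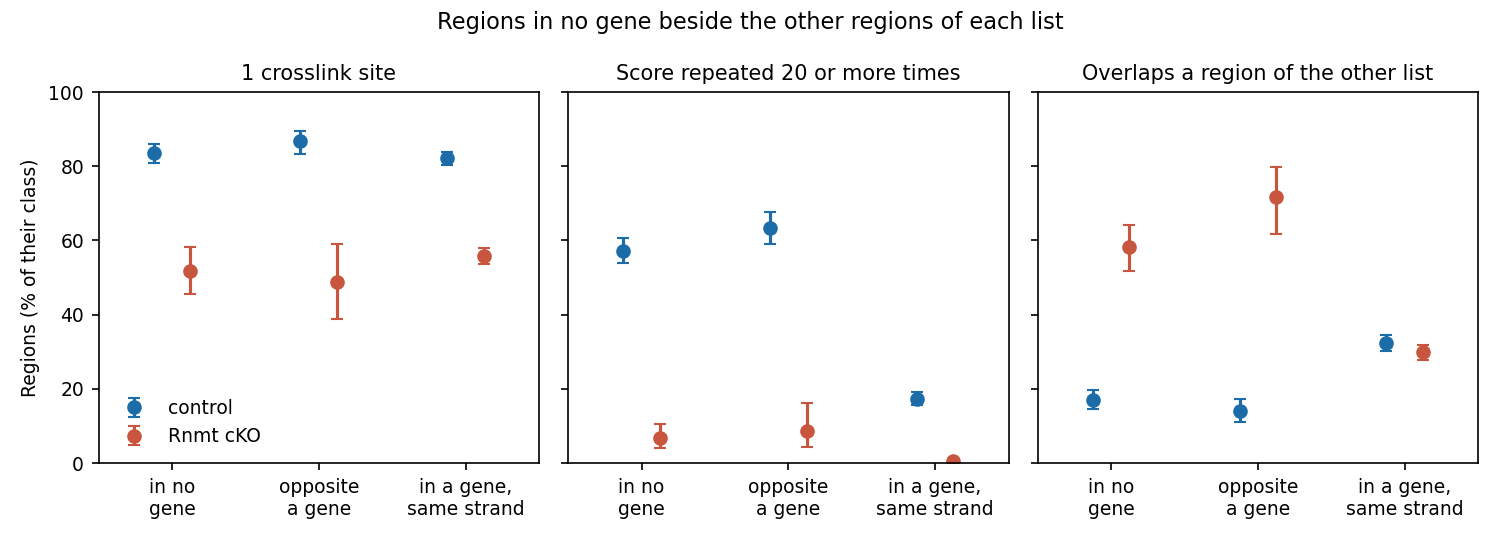
Share of regions (y axis, percent of their class) with 1 crosslink site, with a score repeated 20 or more times and with an overlap in the other list, for regions in no gene, opposite a gene and in a gene of the same strand. Points are shares and bars are 95% Wilson intervals over regions. For repeated control scores the regions in no gene, at 57.3%, lie nearer to the 63.4% of those opposite a gene than to the 17.3% in genes of the same strand.

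Whether a control region in no gene was found again went with its score and its number of sites. Of the 468 with a repeated score, 12 overlapped a Rnmt cKO region (2.56%), and of the other 349, 127 did (36.4%). In the Rnmt cKO list the shares were 9 of 16 and 130 of 223 (58.3%). With 1 site, 63 of 682 control regions were shared (9.24%, 7.29 to 11.6%), with 2 sites 39 of 85 (45.9%, 35.7 to 56.4%), and with 3 or more sites 37 of 50 (74.0%, 60.4 to 84.1%). The Rnmt cKO list ran from 46.8% with 1 site (38.2 to 55.5%) through 61.1% with 2 (47.8 to 73.0%) to 78.7% with 3 or more (66.9 to 87.1%). The lists are not compared by these intervals, because their shares count nearly the same pairs. With 1 site, 63 shared regions were set against 682 in the control list and 58 against 124 in the Rnmt cKO list. The median score of control regions in no gene was 65.7 for those shared and 8.34 for those in the control list alone. The corresponding Rnmt cKO medians were 23.4 and 4.29. Because PureCLIP fits its model library by library, score values of the lists were not compared with each other. Only ranks of the scores within each list were set side by side for the shared pairs. Scores of both lists were added only to choose which shared pairs to name.

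Most shared pairs had the same ends, which the definition of a pair fixed in part. Regions of 1 nt each can overlap only at the same base, and 63 control and 58 Rnmt cKO partners had 1 site. In 90 of 139 pairs both ends were the same, in 107 the 5′ ends were the same, and the largest shift of a 5′ end was 11 nt. The Rnmt cKO partner had more sites in 39 pairs, as many in 84 and fewer in 16. Ranked within its own list, the control partner stood higher in 113 of 139 pairs, beside 398 of 700 pairs among all other shared regions. Over the 139 pairs the scores had a Spearman correlation of 0.67, given as a description because both lists were made by the same caller.

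**Figure D2:**
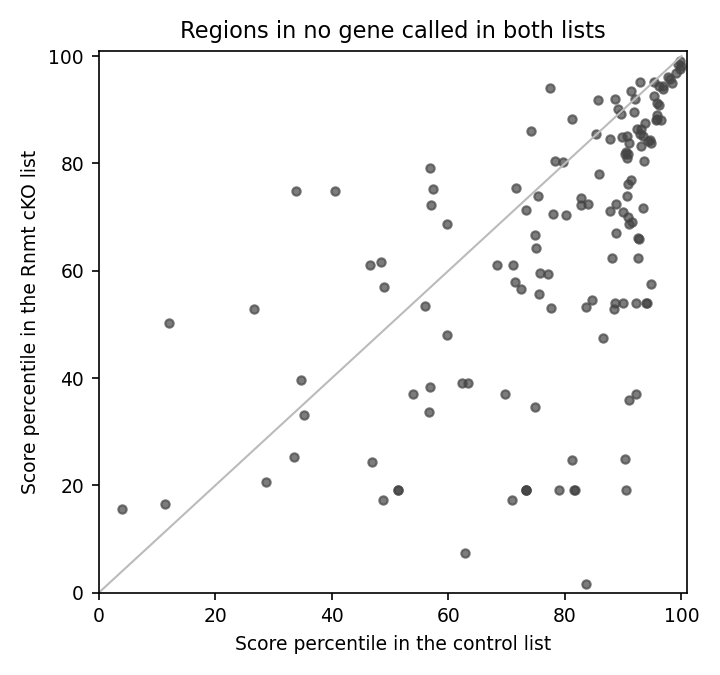
Score percentile of each of the 139 shared pairs of regions in no gene, within the control list (x axis) and within the Rnmt cKO list (y axis), with the line of equal percentiles. Of the points, 113 lie below the line, and both partners reach the top 10% of their lists in 18 pairs.

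A handful of the shared pairs were among the highest scores of the control list, and they lay far from known genes or beside predicted ones. The pair with the highest summed score was on chromosome X (chrX:46853636-46853640, minus strand), with 5 sites and a score of 2677 in the control list, where it ranked 1, and 5 sites and 1091 in the Rnmt cKO list, where it ranked 44. Its nearest gene, Gm29242, was 79537 nt away. The second lay on chromosome 16 (chr16:3110221-3110226, plus strand), 1636 nt from Gm49554, with scores of 2136 and 1352. The third was also on chromosome 16 (chr16:90308913-90308916, plus strand), 5956 nt from Gm49707, with scores of 1933 and 897. The fourth (chr9:3260415-3260417, minus strand) lay 3025 nt downstream of Gm27679, annotated as a miscellaneous small RNA, with 1458 and 1184. These 4 regions were the same to within 1 nt in both lists.

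The next 6 scored from 440 to 1288 in the control list and from 196 to 671 in the Rnmt cKO list. They lay at chr12:15479551-15479554 on the minus strand (3489 nt from Gm48541), chr12:42397821-42397822 on the plus strand (116008 nt from Gm25248), chr10:53888428-53888432 on the plus strand (16353 nt from Man1a, a mannosidase gene), chr9:30014666-30014669 on the plus strand (48587 nt from Gm19640), chr1:14134700-14134703 on the minus strand (21881 nt from Gm37400) and chr3:17067989-17067991 on the plus strand (162651 nt from Gm5283). Of the 10 named, the last pair overlapped RefSeq long non-coding RNAs, Gm39596 and Gm42185, and the other 8 overlapped no RefSeq gene either. Regions in no gene took 3 of the 10 highest control scores and 0 of the 10 highest Rnmt cKO scores, and 9 and 6 of the highest 100. They made up 25.6% of the control list and 10.1% of the Rnmt cKO list. Their 9% of the control highest 100 (4.81 to 16.2%) was thus below their share of the list. The interval for the Rnmt cKO highest 100 (2.78 to 12.5%) holds the share of that list. Among the highest 500 they were 27.2% (control) and 11.8% (Rnmt cKO).

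Regions found in 1 list alone scored lower. The highest in the control list alone was at chr8:125336300-125336302 (minus strand, 74442 nt from Disc1) with a score of 439 and rank 102. It was followed by chr14:101020196-101020198 (plus strand, in the RefSeq long non-coding RNA Gm46481) with 377, chr1:38165476 (minus strand, 5584 nt from Gm5099) with 314, chr2:45838855 (plus strand, 28385 nt downstream of Gm13466) with 306 and chr18:79143418 (plus strand, 34027 nt from Setbp1) with 239. The last 3 had 1 site each. The highest in the Rnmt cKO list alone was at chr3:53692401-53692404 (minus strand, 4 sites, score 94.7), 18 nt after the end of the pseudogene Gm6204 shown above. The other 4 were chr11:22709154-22709157 (plus strand, 66.4), chr16:54201291 (minus strand, 59.3), chr3:5049075-5049077 (minus strand, 53.8) and chr13:23408777 (plus strand, 48.4), which lay 9584 to 148833 nt from a gene.

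The regions in no gene lay nearer to genes in the Rnmt cKO list. The median distance to the nearest gene on either strand was 17083 nt for control (quartiles 5031 and 46599) and 9957 nt for Rnmt cKO regions (quartiles 1490 and 43477). Within 10000 nt of a gene were 303 of 817 control regions (37.1%, 33.8 to 40.5%) and, in the Rnmt cKO list, 121 of 239 (50.6%, 44.3 to 56.9%). Those of the Rnmt cKO list alone lay nearest. Their median distance was 2620.5 nt (n = 100), against 16257.5 nt for the control list alone (n = 678) and 19446 nt for the shared pairs in both lists. Within 1000 nt of a gene were 38 of the 100 regions of the Rnmt cKO list alone (38.0%, 29.1 to 47.8%) and 59 of the 678 of the control list alone (8.70%, 6.81 to 11.1%). Outside the receptor loci the Rnmt cKO share was 28.4% (19.7 to 39.0%), and among regions in no RefSeq gene the shares were 13.3% (6.91 to 24.2%) and 8.51% (6.54 to 11.0%), with intervals that overlap. The closest regions were 14 nt from a gene in each list, and the longest distance was 461099 nt, in the control list.

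**Figure D3:**
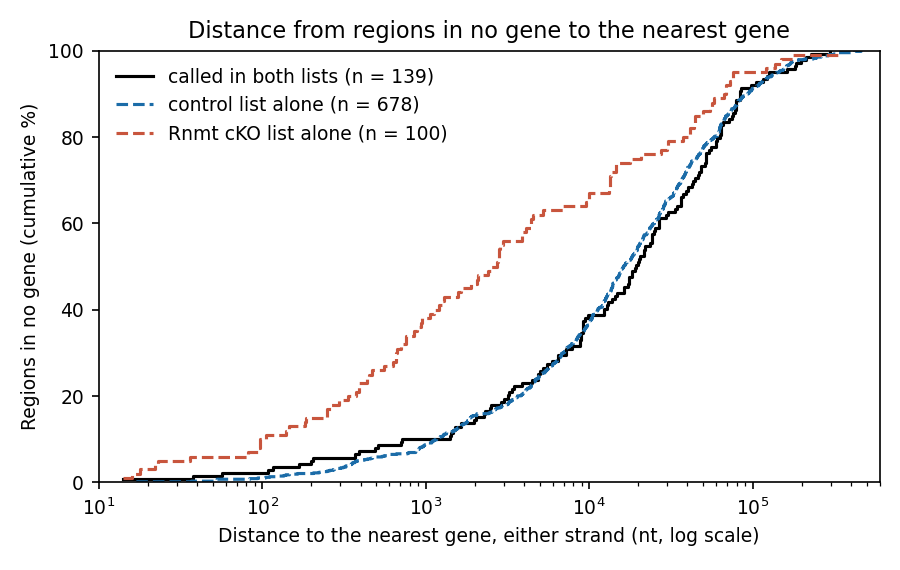
Cumulative share (y axis, percent) of regions in no gene by their distance to the nearest gene on either strand (x axis, nt, log scale), for the 139 shared pairs (control coordinates), the 678 regions of the control list alone and the 100 regions of the Rnmt cKO list alone. The curve of the Rnmt cKO list alone rises first, with a median of 2620.5 nt, while the other curves run together with medians of 19446 and 16257.5 nt.

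The 100 regions of the Rnmt cKO list alone fell into a few kinds of places. Of these, 19 lay inside the T cell receptor loci Tcra and Tcrb as RefSeq draws them, 21 inside another RefSeq gene (median 392 nt from a GENCODE gene), and 60 in no RefSeq gene (median 11636.5 nt). Of the 678 of the control list alone, 1 lay in a receptor locus, 78 in another RefSeq gene and 599 in none. Over all regions in no GENCODE gene, a RefSeq gene of the same build covered 97 of 817 in the control list (11.9%, 9.83 to 14.3%) and 58 of 239 in the other list (24.3%, 19.3 to 30.1%). The RefSeq table used has no strand, so these are overlaps on either strand. Long non-coding RNAs were the commonest type in the control list (59 regions), and receptor or immunoglobulin loci in the Rnmt cKO list (23, with 13 in pseudogenes, 12 in protein-coding genes and 11 in long non-coding RNAs).

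Downstream of transcript ends the lists differed in the same way. A region lay at most 5000 nt downstream of a same-strand transcript end in 65 of 817 control cases (7.96%, 6.29 to 10.0%) and 56 of 239 Rnmt cKO cases (23.4%, 18.5 to 29.2%). At most 1000 nt downstream these were 21 (2.57%) and 32 (13.4%). Without the receptor loci the shares at 5000 nt were 7.50% and 17.1%, and without any region in a RefSeq gene they were 6.81% and 9.39%. Among shared regions the share at 5000 nt was 10.1% (14 of 139), and in the Rnmt cKO list alone it was 42.0% (42 of 100, 32.8 to 51.8%). Of the 32 Rnmt cKO regions at most 1000 nt downstream, 13 followed processed pseudogenes, 11 J segments, 1 a diversity segment, 6 protein-coding genes and 1 a long intergenic RNA. The J segment Traj12 was followed by 2 of them. The 21 control regions followed 7 pseudogenes, 6 protein-coding genes, 2 J segments, 1 diversity segment and 5 non-coding RNAs.

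Most processed pseudogenes that ended at most 1000 nt before a region were copies of the mRNAs that LARP1 is known to bind. With a limit of 5000 nt the share was lower in both lists. Each of the 13 pseudogenes at most 1000 nt away was compared with all protein-coding transcripts of GENCODE M21 by sequence alignment. For 8 of them the best match was a cytosolic ribosomal protein mRNA, and for 3 it was another TOP mRNA (Naca, the alpha subunit of the nascent polypeptide-associated complex, once, and Tpt1, translationally controlled tumour protein, for 2). The other 2 matched Ptma, which encodes prothymosin alpha, and Gm20521. Over all 9852 processed pseudogenes outside chromosome Y, 2311 had a ribosomal protein or other TOP mRNA as best match (23.5%). At most 5000 nt away it was 12 of 21 over both lists (57.1%, 36.5 to 75.5%). It was 5 of 11 in the control list (45.5%, 21.3 to 72.0%), an interval that holds the 23.5% of all processed pseudogenes. In the Rnmt cKO list it was 12 of 16 (50.5 to 89.8%). These counts include the pseudogenes at most 1000 nt away, which gave 5 of the 5 control copies and 11 of the 12 Rnmt cKO copies. Of the 16 processed pseudogenes that held a region of the control list on their own strand, 14 were such copies, and 13 of 16 in the Rnmt cKO list. Among the 13 followed by a region at most 1000 nt away the share was 84.6% (57.8 to 95.7%), which overlaps the intervals for those holding one (64.0 to 96.5% and 57.0 to 93.4%).

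For 11 of the 13 pseudogenes the place of the region, counted on from the end of the alignment, fell within the 3′ UTR of the matching mRNA. The sequence after the pseudogenes was not compared with it. The pair after Gm4149 (chr13:75645185-75645196, plus strand) began 14 nt after the annotated end of the pseudogene, with 2 sites and a score of 22.4 in the control list and 2 sites and 65.7 in the Rnmt cKO list. Gm4149 was 99.6% identical to Rpl37a over 276 nt, and if the match ran on without gaps the region would begin 11 nt past the stop codon of Rpl37a. The pair at chr18:23945588 (plus strand), with scores of 28.3 and 40.7, lay 38 nt after AC126807.1, which RefSeq names Rpl19-ps7 and which was 98.1% identical to Rpl19. It would fall 37 nt past that stop codon and 61 nt before the end of the mRNA.

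The regions of the Rnmt cKO list alone followed in the same way. The region after Gm6204, the highest of that list alone with 94.7, would lie 18 nt past the stop codon of Rps14, to which Gm6204 was 96.95% identical. The region after Gm8129 (chr6:52346714, minus strand, 1 site, score 20.3) would lie 16 nt past that of Rpl38 (99.5% identical). The region after Rpl5-ps1 (chr1:14865987-14865988, plus strand, 2 sites, 15.7) would lie 22 nt past that of Rpl5 (98.9%). The region after Gm9794 (chr6:66875306-66875307, minus strand, 2 sites, 2.51) would lie 14 nt past that of Rpl23 (99.8%), and the one after Gm6863 (chr12:96922340-96922341, minus strand, 2 sites, 4.37) would lie 79 nt past that of Naca (99.8%). In none of these 5 places did the control list have an overlapping region.

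Copies of Tpt1 and Rpl41 had regions deeper in the stretch. The pair 167 nt after Tpt1-ps6 (chrX:101769224, plus strand, 1 site) had a control score of 48.6 and a Rnmt cKO score of 133. After Tpt1-ps3 the control region lay at 165 nt (chr6:99877651, minus strand, 1 site, 4.91) and the Rnmt cKO region at 140 nt (chr6:99877673-99877676, 4 sites, 14.2), so that the regions did not overlap. On Tpt1 these places would be 140 to 167 nt past the stop codon. The pair 205 nt after Gm10180 (chr9:25101199, minus strand, 1 site) scored 3.94 and 4.76, and would lie 205 nt past the stop codon of Rpl41 and 68 nt before the end of that mRNA. The copies of Ptma (634 nt, score 0.321) and Rpl13 (Gm5100, 392 nt, 6.12) and the copy Gm2272 (848 nt, 0.00621) had Rnmt cKO regions farther off, and for Gm5100 and Gm2272 the place would be beyond the end of the matching mRNA.

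The matching mRNAs had regions of their own, but not at these places. Rps14 held 4 control and 6 Rnmt cKO regions, and the nearest to the corresponding base was 59 nt away on the genome. For Rpl41 the nearest were 136 nt away in the control list and 111 nt in the Rnmt cKO list, and for Rpl37a, Rpl19, Rpl38, Rpl5, Rpl23, Naca and Tpt1 they were 243 to 2392 nt away, introns included. The copies were 96.95 to 100% identical to their mRNAs in these 10 pseudogenes, and the authors removed alignments with a mapping quality below 20. Whether the reads came from the pseudogene or from its match was not tested.

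**Figure D4:**
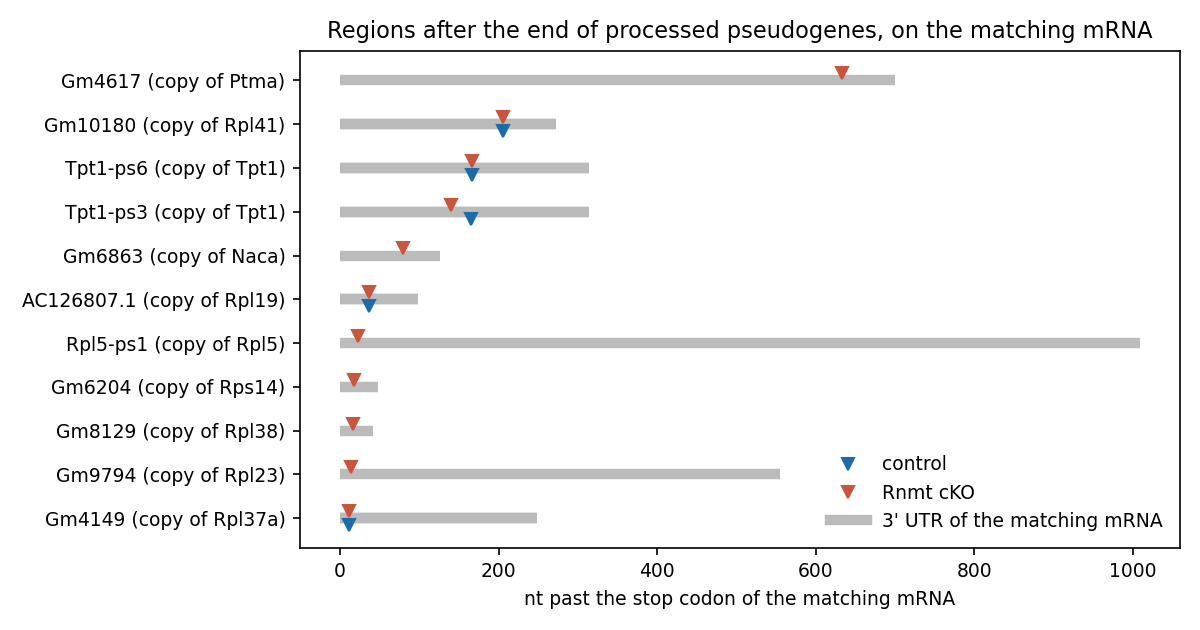
Place of each region that followed a processed pseudogene, drawn on the best-matching mRNA as the number of nt past its stop codon (x axis), for the 11 pseudogenes (y axis) whose place lies within that mRNA. Triangles are regions (blue control, red Rnmt cKO), grey bars are the 3′ UTRs, and 7 of the 11 pseudogenes have their triangles within 79 nt of the stop codon.

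Some protein-coding genes also had regions at most 1000 nt after their annotated ends. A region of 4 Rnmt cKO sites on chromosome 13 (chr13:23534340-23534343, plus strand, score 24.7) lay 36 nt after Hist1h2af, a replication-dependent histone H2A gene that RefSeq names H2ac10 and extends over the region. A pair lay 704 nt after Eif2s1, which encodes the alpha subunit of the initiation factor eIF2 (chr12:78887714-78887715, plus strand, 2 sites and 25.8 in the control list, 3 sites and 13.3 in the Rnmt cKO list). Each list had 1 site after Gimap4, a GTPase of immune cells, 1 nt apart at 147 nt in the control list (chr6:48692207, 1.51) and 146 nt in the Rnmt cKO list (chr6:48692206, 0.669). Rnmt cKO sites with low scores followed Zfp869 (467 nt, 0.236), Map3k3 (473 nt, 0.150) and Klhl11 (944 nt, 0.236), each within the RefSeq gene. In the control list 6 regions lay at most 1000 nt after protein-coding genes, those after Eif2s1 and Gimap4 included. The other 4 were single sites after Pcyox1l (1.31), Pip5k1c (4.83), Prdx6b (8.37) and Agap2 (1.31). Of these 4 scores, 3 were repeated 20 or more times. The site after Pip5k1c lay nearer to the start of Cactin on the same strand, 358 nt upstream of it.

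The gene groups nearest to the regions were set beside their share of all genes. Of the regions in no gene, 186 control and 86 Rnmt cKO regions had a same-strand gene within 10000 nt. The nearest was one of the 87 cytosolic ribosomal protein or 24 other TOP genes for 0 of them in either list, and these genes are 0.206% of all genes, so that 0 is close to their share. Hosts of small nucleolar RNAs (355 genes, 0.659% of all) were the nearest same-strand gene for 3 control regions and 1 Rnmt cKO region. These were a pair 2522 nt upstream of Slc25a43 (chrX:36741137, plus strand, scores 128 and 9.84) and control sites near Atg16l1 (75.8) and AC154617.1 (1.31). Small structured RNA genes (7.14% of all genes) were the nearest for 15 control regions (8.06% of the 186, 4.95 to 12.9%) and 2 Rnmt cKO regions (2.33% of the 86, 0.640 to 8.09%). Pseudogenes (22.9% of all genes) were the nearest for 41 (22.0%, 16.7 to 28.5%) and 23 (26.7%, 18.5 to 36.9%). All 4 intervals hold the share of all genes.

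The T cell receptor loci were the fullest places for Rnmt cKO regions in no gene. In the alpha locus the Rnmt cKO list had 13 and the control list 3, all on the plus strand, which is that of the receptor transcript, and all between the first J segment and the constant gene Trac. Their scores were modest, with a median of 4.65 in the Rnmt cKO list (0.550 to 11.3), below the 9.84 of all its regions in no gene, and 0.361, 2.26 and 12.7 in the control list. They lay 94 nt after Traj21 (1.58), 97 nt after Traj23 (4.71), 97 nt after Traj16 (3.74), 150 nt after Traj26 (4.65), 184 and 279 nt after Traj12 (6.67 and 9.73), 251 nt after Traj6 (11.3), 448 nt after Traj41 (4.75), 495 nt after Traj18 (4.72) and 558 nt after Traj31 (3.74). Of the other 3, 2 followed Traj5 at 1750 and 1939 nt (4.29 and 1.63), and 1 lay 672 nt before Trac (0.550). The control regions lay 356 nt after Traj45 (0.361), 150 nt after Traj26 (12.7) and 1939 nt after Traj5 (2.26). The last pair of these were shared with the Rnmt cKO list, at chr14:54194699 and chr14:54215777.

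The beta locus had a like arrangement. Between the J segments and the constant gene Trbc2 the Rnmt cKO list had 6 regions on the plus strand and the control list 1. The highest were 105 nt before the diversity segment Trbd2 (chr6:41542056-41542058, 2 sites, 33.2) and 764 nt before Trbc1 (chr6:41537454, 25.8). The others lay 236 nt after Trbj1-5 (6.31), 1291 nt after Trbj2-7 (6.72), 660 nt before Trbc2 (3.93) and 378 nt after Trbd2 (4.62). The last was shared with the control list (chr6:41542554, 14.6). A further 3 Rnmt cKO sites lay on the minus strand 2755 to 4526 nt from the variable segment Trbv21 (2.43 to 4.67). In both loci together these made 22 of 239 Rnmt cKO regions in no gene (9.21%, 6.16 to 13.5%) and 4 of 817 control regions (0.490%, 0.191 to 1.25%). The constant gene Trac held 1 control region and 0 Rnmt cKO regions, and Trbc1 and Trbc2 held 0 in both. The gamma and delta loci held 0 in both lists. Of the immunoglobulin loci, lambda had 1 shared region (scores 121 and 100.3) and heavy chain 1 control region (4.88).

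**Figure D5:**
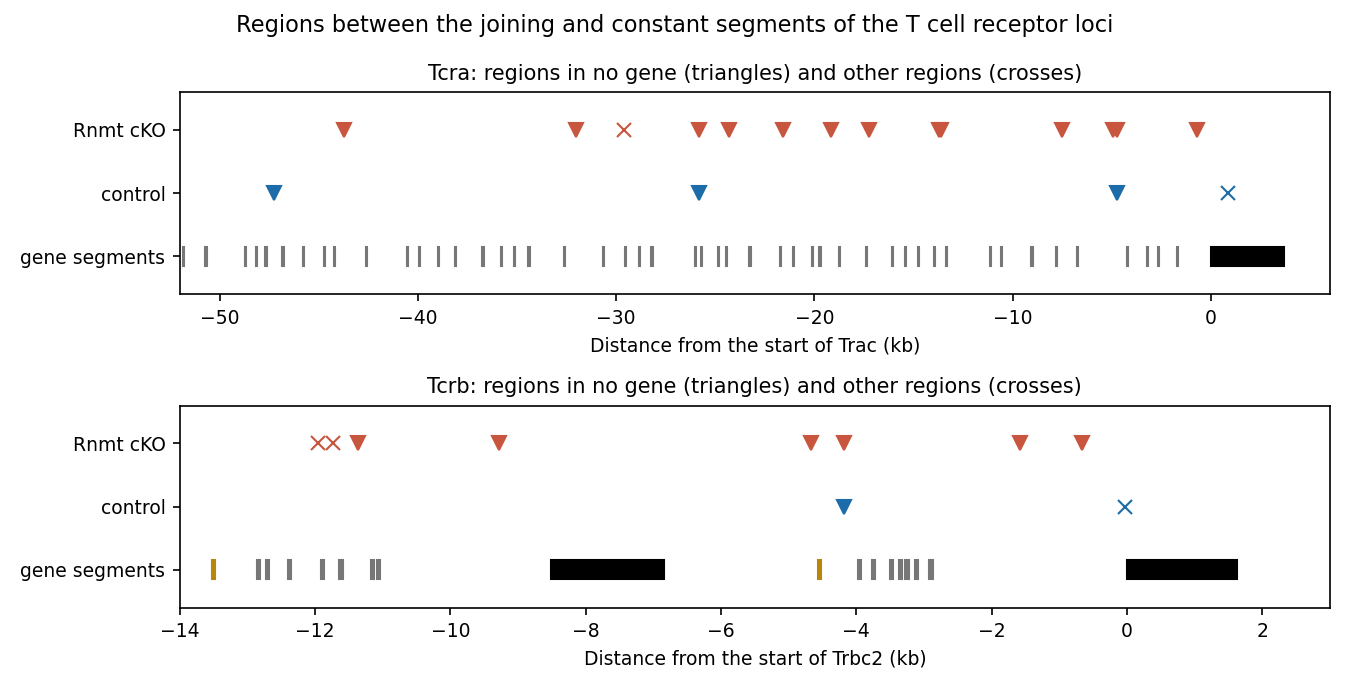
Regions of the control and Rnmt cKO lists along the J to constant stretch of the alpha locus (top, kb from the start of Trac) and of the beta locus (bottom, kb from the start of Trbc2). Triangles are regions in no gene and crosses other regions, grey bars are J segments, gold bars diversity segments and black bars constant genes, and the Rnmt cKO row holds 13 triangles in the upper panel against 3 in the control row.

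Outside the receptor loci few regions in no gene lay together. The 3 windows of 100000 nt with the most regions were 2 on chromosome 14 and 1 on chromosome 6, with 9 (1 control and 8 Rnmt cKO), 8 (2 and 6) and 7 (2 and 5), and all of these but 1 control region on chromosome 6 lay in the receptor loci. The fourth was on chromosome X, with 1 control and 5 Rnmt cKO regions, all on the plus strand, from 94861632 to 94874373. They lay 63395 to 76134 nt downstream of Gm26617, in no GENCODE and no RefSeq gene. Of these, the region at chrX:94861632-94861643 was called in both lists (scores 11.2 and 30.1) and the other 4 in the Rnmt cKO list alone (0.0546 to 2.98). On chromosome 3, 3 Rnmt cKO regions on the minus strand (2.34, 25.7 and 20.3) lay 4092 to 6163 nt downstream of 2010016I18Rik, and the control list held the first of them (3.54). These windows were named after their values were seen. No control window held more than 2 regions, and 794 windows held the 817 control regions. Another region of the same list lay within 1000 nt on the same strand for 3 control regions (0.367%) and 16 Rnmt cKO regions (6.69%).

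Every chromosome but Y, which was left out, held regions in no gene of both lists. The gene-free length between the first and last gene of each chromosome summed to 1356 Mb. In each 10 Mb of it the control list had 6.02 regions, from 4.05 on chromosome X to 8.60 on chromosome 11. Chromosome 11 held 5.88% of the control regions in no gene (4.46 to 7.70%) and 4.12% of the gene-free length. The Rnmt cKO list had 1.76, from 0.863 on chromosome 17 to 3.84 on chromosome 14 and 3.30 on chromosome 6, the chromosomes of the alpha and beta receptor loci. On chromosome X lay 5.75% (4.35 to 7.57%) of the control and 9.62% (6.50 to 14.0%) of the Rnmt cKO regions in no gene, against 2.91% and 3.01% of the other regions of those lists and 8.56% of the gene-free length. Stretches of more than 100000 nt without a gene made up 51.6% of the gene-free length, and held 46.9% (control) and 40.6% (Rnmt cKO) of the regions in no gene.

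Near transcript starts the regions were few, beyond the 100 nt that the definition leaves out. The nearest region kept in each list lay 105 nt upstream of a start, and the farthest left out lay 95 nt upstream in the control list and 94 nt in the Rnmt cKO list. At most 1000 nt upstream of a same-strand start lay 28 control (3.43%, 2.38 to 4.91%) and 22 Rnmt cKO regions (9.21%, 6.16 to 13.5%). Outside the receptor loci these were 24 of 813 (2.95%, 1.99 to 4.35%) and 8 of 217 (3.69%, 1.88 to 7.10%), with intervals that overlap. The nearest control region was a single site before Vim (chr2:13573822, plus strand, 4.83, a repeated score). The next was a shared site 108 nt before Tpt1-ps5, another pseudogene of Tpt1 (chr9:37696407, plus strand, 0.137 and 1.26). A shared site lay 392 nt before Spg11 (chr2:122118778, minus strand, 95.7 and 45.7), inside the gene as RefSeq draws it. No region in no gene overlapped a RefSeq miRNA hairpin.

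The base sequence around a region could be read for 3 control regions in no gene, which fell in the RefSeq promoter window (250 bases before to 50 after a start, GRCm38) of a gene on the other strand. Each had 1 site and was found in the control list alone. The sequence of 15 bases on either side is given on the strand of the region, with the region itself in capitals.

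Opposite Srebf1: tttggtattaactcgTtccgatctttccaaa
Opposite Klhdc8a: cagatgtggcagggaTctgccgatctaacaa
Opposite Yap1: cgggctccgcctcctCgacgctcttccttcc

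The first was at chr11:60222618 (plus strand, 37 nt before the Srebf1 start, score 1.31), the second at chr1:132298403 (minus strand, 223 nt before the Klhdc8a start, 8.34) and the third at chr9:8004648 (plus strand, 52 nt before the Yap1 start, 15.3). The windows printed were chr11:60222603-60222633, chr1:132298388-132298418 and chr9:8004633-8004663. The scores of the first pair were values of the ladder above, and both windows had the bases ccgatct shortly after the site. The third had gacgctcttcc directly after it. Whether these stretches match the adapters of the library was not tested, so the windows are not shown to be sequence that LARP1 bound.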

How the data were processed

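Data were 2 lists of LARP1 binding regions, from 1 control and 1 Rnmt cKO library. The authors extracted the random barcode of each read (UMI-tools), trimmed adapters (cutadapt), aligned reads to mm10 with STAR 2.5.2b, removed PCR duplicates and alignments with a mapping quality under 20 (SAMtools), and called sites with PureCLIP against size-matched input. The deposited score of a region is the sum of its site scores (5580 of 5580 regions) and depends on the model fitted to each library. Score values were compared only within a list, and for shared pairs the ranks within each list were set side by side. Scores of both lists were added only to choose the named shared regions. The study's later selection by read ratios to input and IgG is not in these lists, and read depth is not known from them.

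Classes and distances were computed in Python 3.11.15 (NumPy 2.4.6, SciPy 1.17.1) with GENCODE M21, checked on made-up regions of known place. A distance of 1 nt means adjacent. Repeated scores were counted with chromosome Y (10 control and 14 Rnmt cKO regions), which was otherwise left out. Pseudogenes were aligned with BLAST+ 2.17.0 (megablast, same strand, word size 16, at least 50% of the pseudogene). Named regions were the 10 shared ones with the highest summed score, the 5 highest of each list alone, the 5 shared ones nearest after a transcript end and the 3 fullest windows, and further ones were chosen after their values were seen. Members and gene lists were chosen with earlier results of these data known. Other libraries were not used here.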

Additional observations from a re-analysis of the deposited data

How the results depend on the processing

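Of 90 values recomputed under an alternative, 48 fell inside the 95% interval of the reported share (counts within 1.5 times). The cause of the other shifts was not tested, apart from those that the alternative makes by construction. With scores above the list's own median, the numbers were 422 control and 134 Rnmt cKO regions, 28.5% of the control list, 23.5% and 73.9% shared, 71.1% and 36.6% with 1 site, and 34.1% and 0% with a repeated score. With at least 2 sites they were 135 and 115, with 51.9% of control regions shared and 0% and 0% repeated. Without scores occurring 20 or more times the control list had 349, 16.6% of that list, 35.5% shared and 61.3% with 1 site. Without any repeated score it had 216, 15.5%, 46.8% and 44.0%, and the Rnmt cKO list 8.80% and 38.3% with 1 site. The share of the list in no gene was higher in the control list under each of these filters. With genes of the same strand only there were 1290 control regions (40.5%) and 14.0% of the Rnmt cKO list. The Rnmt cKO share was 11.7% with no upstream window and 8.75% without regions at most 1000 nt after a transcript end. Within 1000 nt of a gene were 8.94% and 21.8%, and within 50000 nt 76.7% and 78.2%. At most 1000 nt downstream were 2.57% and 13.4%, and at most 10000 nt 13.5% of control regions. Scores occurring 2 or more times made up 73.6% and 24.7%. In alternatives chosen after seeing the data, 17.1% of Rnmt cKO regions lay downstream of a transcript end without the receptor loci, and without RefSeq genes 9.39% did, 40.3% lay near a gene and 66.9% were shared. No paired analysis was possible because 1 library stood for each genotype, and for the same reason no replicate could be left out. Depth behind single sites was unknown.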
